A study of Mus musculus with 24 samples.

Results

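The 10 genes described here encode the MAP kinase phosphatases of the mouse, *Dusp1*, *Dusp2*, *Dusp4*, *Dusp5*, *Dusp6*, *Dusp7*, *Dusp8*, *Dusp9*, *Dusp10* and *Dusp16*. They were taken by gene symbol from the GRCm38 annotation, and each of the 10 was found once among the 55487 genes listed. RNA was sequenced from C2C12 myotubes, which are muscle fibre-like cells grown from a mouse myoblast line, at day 5 of differentiation. All cultures were wild type, had differentiated under 5 % O2, and then spent 2 h under either 5 % or 1 % O2. The study's methods place these 2 h before the electrical stimulation. At each O2 level, 6 cultures were left at rest (5 % CTRL and 1 % CTRL) and 6 were made to contract by electrical stimulation (5 % STIM and 1 % STIM), with RNA taken straight after the last bout. C2C12 is a single clonal line in culture medium, without nerve, blood vessel or the other cells of a muscle.

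MAP kinases (ERK, JNK and p38) are switched on by phosphate groups on a threonine and a tyrosine of their activation loop. The MAP kinase phosphatases remove both groups and so switch the kinases off. The family is usually divided by location and substrate into inducible nuclear enzymes (*Dusp1*, *Dusp2*, *Dusp4*, *Dusp5*), cytoplasmic enzymes that act on ERK (*Dusp6*, *Dusp7*, *Dusp9*), and enzymes that prefer JNK and p38 (*Dusp8*, *Dusp10*, *Dusp16*). Several of these genes are transcribed in answer to the kinases their products inactivate, which makes a feedback loop, and contraction of skeletal muscle is known to activate all 3 kinase classes named here.

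The 24 libraries held 26541858 to 28173745 reads. The values are read counts after division by DESeq2 size factors, called normalized counts below. The spread between replicates exceeded the sampling noise of their reads. One library stood apart, 1 % CTRL replicate 1, with a chi-square per gene of 14.96 to 22.03 against the others of its group, which differed from each other by 2.57 to 4.91, and the steepest trend with gene length. Without it, 2316 genes passed for the interaction in place of 1645, while 6, 8, 4, 8 and 4 of the 10 phosphatase genes passed in place of 5, 8, 4, 8 and 4 (in the order of the comparisons below). Genes reaching 10 normalized counts in 6 or more libraries were tested, 14541 in all, and all 10 phosphatase genes were among them, each at 10 or more in every one of the 24 libraries. All 12 myotube markers passed the same filter, while 1 of 5 endothelial, 3 of 5 macrophage and 0 of 5 adipocyte markers did. The hypoxia check list answered 1 % O2, with 9 of its 10 genes higher in 1 % CTRL than in 5 % CTRL and 1 lower. Of all genes tested, 59.9 % passed there (29.4 % higher), and the median log2 fold change of the list was 1.57. In 1 % STIM against 5 % STIM, 8 were higher and 1 lower, with a median of 1.02, and 57.4 % of all genes passed (29.0 % higher). Size factors lay at 0.955 to 0.992 in the 5 % O2 groups and at 1.02 to 1.05 in the 1 % O2 groups. Scaling the libraries to the same total instead moved the share of higher genes among all called genes from 49.0 % to 62.7 % in 1 % CTRL against 5 % CTRL, from 50.4 % to 63.2 % in 1 % STIM against 5 % STIM, from 44.0 % to 62.1 % in 5 % STIM against 5 % CTRL and from 51.4 % to 62.4 % in 1 % STIM against 1 % CTRL. No called value of a phosphatase gene changed sign under that scaling, and the 3 calls it did change are given beside the genes. Of values not called, *Dusp16* in 1 % CTRL against 5 % CTRL went from -0.02 to 0.06 and *Dusp5* in 5 % STIM against 5 % CTRL from -0.02 to 0.01.

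Levels of different genes were compared per kb of exon. *Dusp10* was the most abundant of the 10 in every group, at 312 ± 11.4 normalized counts per kb in 5 % CTRL and 419 ± 35.6 in 1 % STIM (mean ± SD, n = 6). *Dusp4* came next in every group, at 264 ± 19.2 in 5 % CTRL and 325 ± 27.1 in 1 % STIM. *Dusp2*, best known from activated immune cells, was the lowest in every group, at no more than 13.2 normalized counts per kb. The order in between changed with O2. *Dusp6* ranked 3 of 10 in both 5 % O2 groups and 5 of 10 in both 1 % O2 groups. *Dusp5* ranked 5 in 5 % CTRL and 9 in 1 % CTRL, while *Dusp1* ranked 6 and 4 in the same groups and 3 in 1 % STIM. The level per kb summed over the 10 genes was 1443 in 5 % CTRL and 1459 in 5 % STIM, and 1297 in 1 % CTRL and 1444 in 1 % STIM, lowest in 1 % CTRL and close to each other in the other 3 groups. *Dusp6* supplied 17.3 % of that sum in 5 % CTRL and 8.0 % in 1 % STIM, and *Dusp1* supplied 7.25 % and 13.3 % in the same groups.

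**Figure D1:**
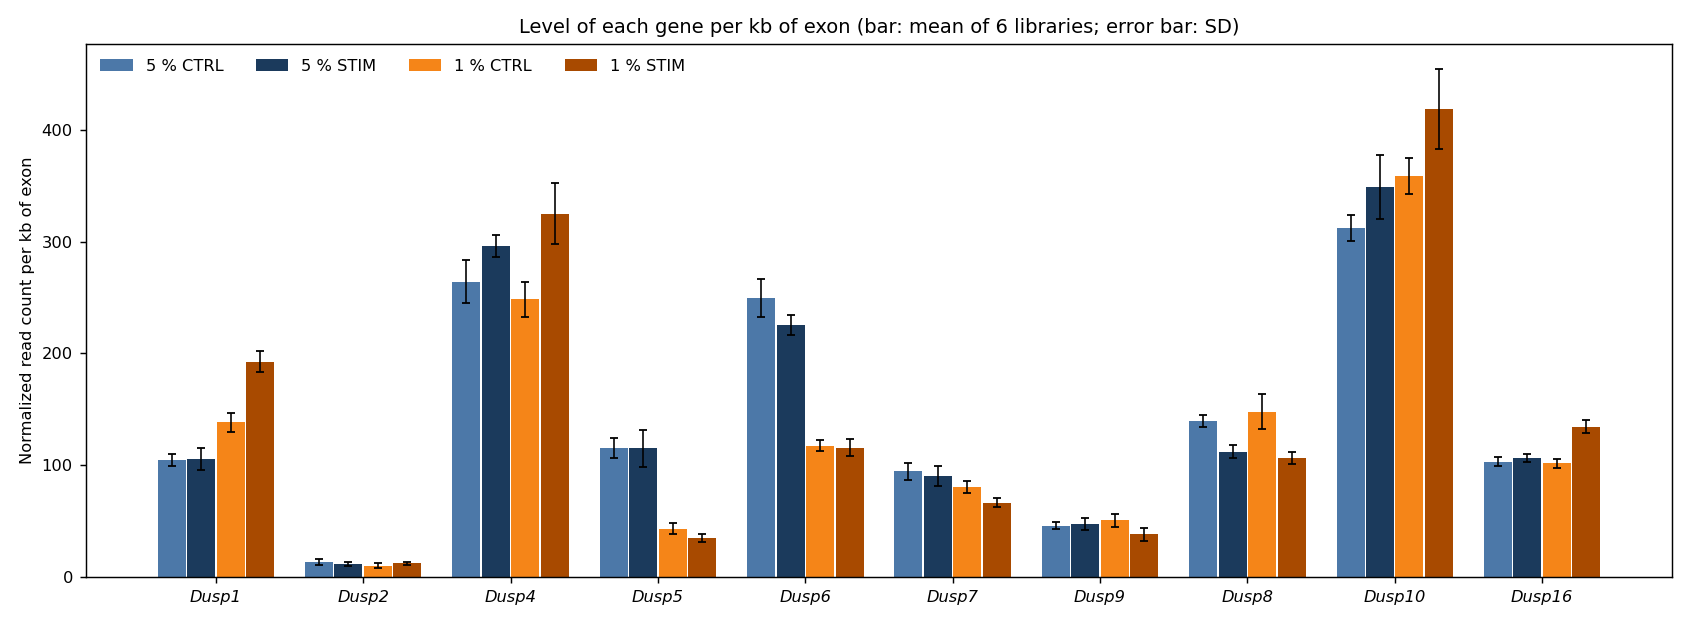
Normalized read count per kb of exon (y axis, linear from 0) for the 10 MAP kinase phosphatase genes (x axis) in the 4 groups; bars are means of 6 libraries and error bars are SD. *Dusp10* and *Dusp4* are the tallest in every group, and the bars of *Dusp5* and *Dusp6* are lower in both 1 % O2 groups than in both 5 % O2 groups.

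The stretches upstream of 4 genes are shown because these genes had the largest changes with O2 (*Dusp5*, *Dusp6*, *Dusp1*) or the largest fall with stimulation at both O2 levels (*Dusp8*). Each is the 200 bases from 250 to 51 bases before the RefSeq start, on the gene's own strand of GRCm38.p6, at chr17:26508523-26508722 (- strand) for *Dusp1*, chr7:142095335-142095534 (- strand) for *Dusp8*, chr19:53528895-53529094 (+ strand) for *Dusp5* and chr10:99262981-99263180 (+ strand) for *Dusp6*. Capitals mark matches, on either strand, to the cAMP response element TGACGTCA, its core TGACG, the AP-1 site (TGAGTCA or TGACTCA), the hypoxia response cores ACGTG and GCGTG, and the CArG box bound by serum response factor.
Dusp1: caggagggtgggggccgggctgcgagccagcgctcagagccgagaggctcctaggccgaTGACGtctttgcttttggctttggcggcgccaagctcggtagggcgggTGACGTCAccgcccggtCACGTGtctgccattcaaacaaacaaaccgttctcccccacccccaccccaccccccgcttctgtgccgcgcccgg
Dusp8: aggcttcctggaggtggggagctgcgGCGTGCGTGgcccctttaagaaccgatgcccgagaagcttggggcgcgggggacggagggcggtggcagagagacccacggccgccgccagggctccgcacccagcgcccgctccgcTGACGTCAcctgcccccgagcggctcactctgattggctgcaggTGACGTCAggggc
Dusp5: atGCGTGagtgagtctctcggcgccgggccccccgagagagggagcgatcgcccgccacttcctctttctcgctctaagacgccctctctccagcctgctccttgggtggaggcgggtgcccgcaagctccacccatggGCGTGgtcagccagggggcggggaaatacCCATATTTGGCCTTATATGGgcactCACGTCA
Dusp6: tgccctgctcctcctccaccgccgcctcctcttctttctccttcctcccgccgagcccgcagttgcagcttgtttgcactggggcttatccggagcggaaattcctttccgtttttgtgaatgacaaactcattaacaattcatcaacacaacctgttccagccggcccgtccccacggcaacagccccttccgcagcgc
*Dusp1* has 1 full cAMP response element and *Dusp8* has 2, and *Dusp5* has 2 CArG boxes side by side. *Dusp6* has no match to any of these motifs in its window. Promoter sequences were on hand for 8 of the 10 genes, without *Dusp4* and *Dusp9*. Over the full 250 bases, the cAMP response element was found in 2 of these 8 windows and in 1.55 % of 32851 windows of the same length over all genes. For the CArG box the figures were 1 of 8 and 1.47 %, for the core TGACG (full elements counted too) 4 of 8 and 17.8 %, for ACGTG 3 of 8 and 16.6 %, for GCGTG 4 of 8 and 28.2 %, and for AP-1 0 of 8 and 4.46 %. These are matches of letters, and no binding was measured.

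Exposure to 1 % O2 was set against 5 % O2 first in cultures at rest and then in stimulated cultures. In both, *Dusp5*, *Dusp6* and, by less, *Dusp7* were lower under 1 % O2 and *Dusp1* and *Dusp10* were higher. At rest, 5 of the 10 genes passed the test (limma, Benjamini-Hochberg adjusted p under 0.05), 2 higher and 3 lower, against 59.9 % of all genes tested (29.4 % higher and 30.5 % lower), so the share of the family was near that of the whole table. The libraries of 1 % CTRL and 5 % CTRL did not overlap for 4 of the 10, against 38.2 % of all genes. After stimulation, 8 of the 10 passed in 1 % STIM against 5 % STIM, 4 higher and 4 lower, against 57.4 % of all genes (29.0 % higher and 28.4 % lower), and 5 of the 10 did not overlap, against 37.3 %. The median log2 fold change of the 10 was -0.054 at rest and -0.024 after stimulation, beside 0.0015 and -0.00083 over all genes tested. In bulk RNA, fewer cells of a type and less RNA per cell cannot be told apart. Of 12 myotube markers, 0 were higher and 7 lower in 1 % CTRL against 5 % CTRL. This was 58.3 % of the list, near the 59.9 % of all genes (30.5 % lower). The summed level of the 12 markers was 444215 to 487840 normalized counts in 1 % CTRL and 500575 to 549280 in 5 % CTRL. In 1 % STIM against 5 % STIM again 0 were higher and 7 lower (58.3 % beside 57.4 % of all genes). Of 7 myoblast and reserve cell markers, 3 were higher and 2 lower in both O2 comparisons. This was 71.4 % of the list, beside 59.9 % and 57.4 % of all genes. The summed levels of these 7 overlapped at rest (15341 to 16233 in 1 % CTRL and 14862 to 16094 in 5 % CTRL). The part of either marker list in the phosphatase results was not tested.

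**Figure D2:**
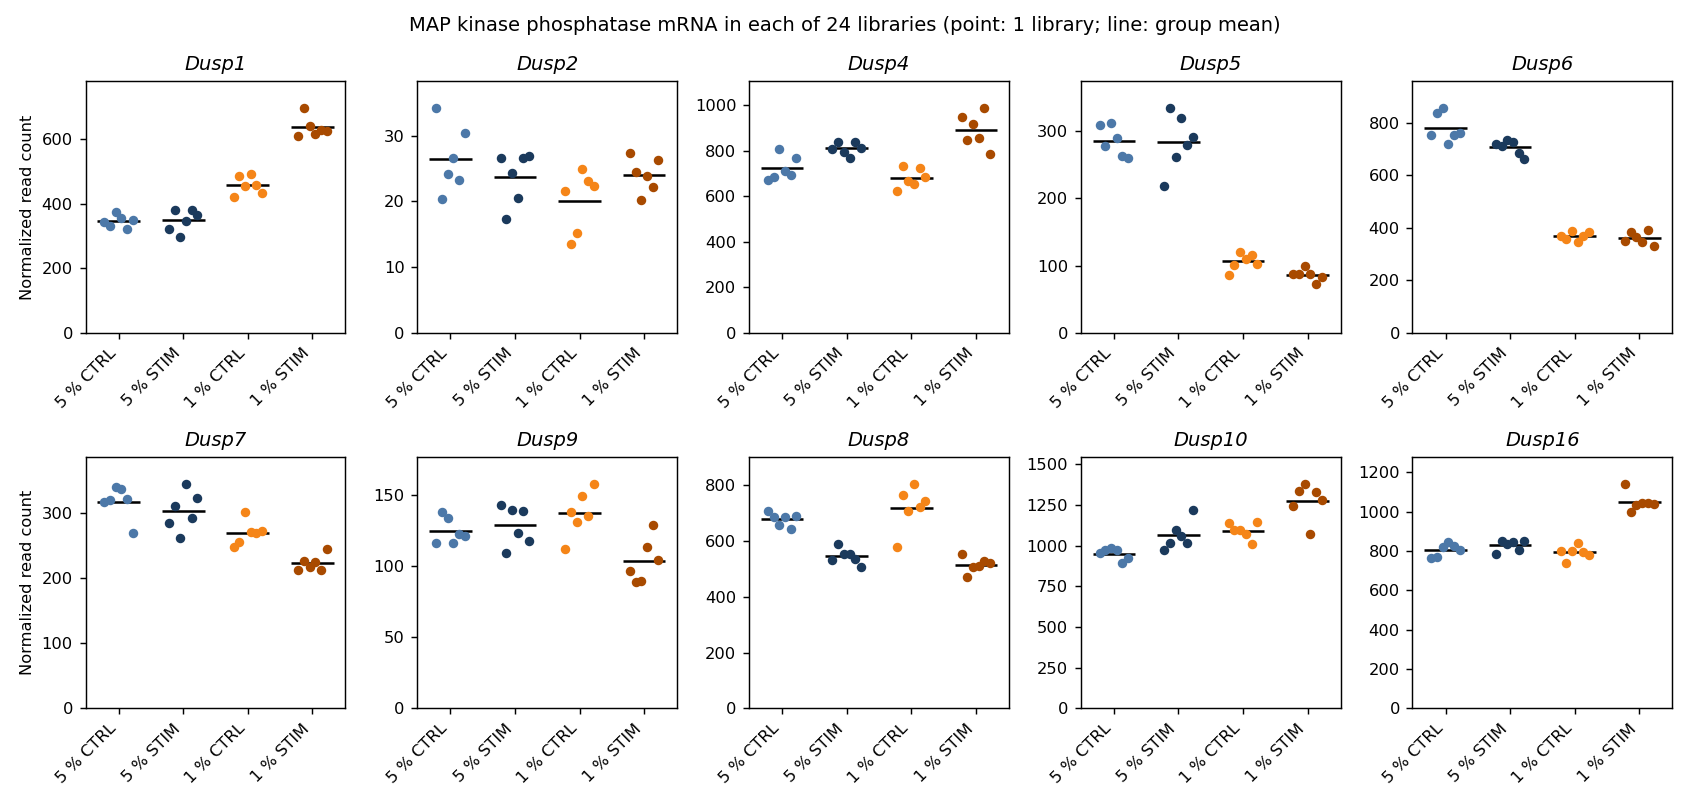
Normalized read count (y axes, linear from 0, 1 scale per gene) of each MAP kinase phosphatase gene in the 24 libraries, grouped on the x axes; each point is 1 library and each line the mean of 6. *Dusp5* and *Dusp6* separate by O2 alone, *Dusp8* separates by stimulation except for 1 library of 1 % CTRL, and *Dusp1* and *Dusp16* are highest in 1 % STIM.

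The inducible nuclear enzymes split. *Dusp5* (ENSMUSG00000034765, chr19:53529109-53542431, + strand), whose product binds and inactivates ERK in the nucleus, showed the largest change with O2 of the 10. Its normalized counts in 5 % CTRL ran from 261 to 312 with a median of 284, and in 1 % CTRL from 86.6 to 121 with a median of 107. In 5 % STIM they ran from 219 to 335 (median 286), and in 1 % STIM from 72.2 to 99.2 (median 87.4). Every 1 % O2 library was thus below every 5 % O2 library. The log2 fold change, on the scale of log2(normalized count + 1), was -1.42 at rest (SE 0.09, limma adjusted p = 4.05e-15) and -1.70 after stimulation (SE 0.09, limma adjusted p = 4.58e-17), which is a fall to 0.373 and 0.307 of the 5 % O2 level. Of the exon bases of *Dusp5*, 547 (22.1 %) are shared with the antisense gene AC137853.2, which was at 0 in these libraries. The authors' counting did not use the strand, so reads from the shared bases cannot be assigned between the pair. Overlaps of other members with a gene on the opposite strand were small, with 11 exon bases (0.332 %) of *Dusp1* shared with *Ergic1* and 66 (1.36 %) of *Dusp8* shared with *Gm32786*.

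*Dusp1* (ENSMUSG00000024190, chr17:26505590-26562128, - strand), an early response gene whose product inactivates p38 and JNK in the nucleus, went the other way. In 5 % CTRL its normalized counts lay between 322 and 375 with a median of 346, and in 1 % CTRL between 421 and 494 with a median of 456. The ranges were 298 to 381 (median 355) in 5 % STIM and 612 to 698 (median 629) in 1 % STIM. Neither pair of O2 groups overlapped, and 1 % STIM stood above all 18 other libraries. The rise with 1 % O2 was 0.40 on the log2 scale at rest (SE 0.06, limma adjusted p = 2.58e-07) and 0.87 after stimulation (SE 0.06, limma adjusted p = 5.82e-15), or 1.32-fold and 1.83-fold. From the lowest, the order of group levels was 5 % CTRL and 5 % STIM, which did not differ beyond their spread (limma adjusted p = 0.961), then 1 % CTRL, then 1 % STIM.

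*Dusp4* (ENSMUSG00000031530, chr8:34807297-34819894, + strand), a nuclear enzyme that acts on ERK and JNK, overlapped between the O2 groups in both comparisons. Its medians were 703 normalized counts in 5 % CTRL and 677 in 1 % CTRL, and the log2 difference of -0.09 (95 % interval -0.19 to 0.02) did not pass the test (limma adjusted p = 0.150). After stimulation it was higher under 1 % O2 by 0.13 (SE 0.05, limma adjusted p = 0.0292), a call that was lost when 5 % STIM replicate 3 or 4 or 1 % STIM replicate 1, 3 or 5 was left out (limma adjusted p = 0.0519 to 0.101). This call was also lost with no filter (limma adjusted p = 0.0564). The same held on 22 libraries with limma (limma adjusted p = 0.0537) and with limma voom on whole reads (limma voom adjusted p = 0.0524). *Dusp2* (ENSMUSG00000027368, chr2:127336159-127338376, + strand) passed the test in no comparison. With 13.4 to 34.2 normalized counts over all libraries, it carried wide intervals, and its log2 difference at rest was -0.39 (95 % interval -0.75 to -0.04, limma adjusted p = 0.0522). That value passed the threshold when any 1 of 6 libraries was left out (5 % CTRL replicate 2 or 5, 1 % CTRL replicate 4, 5 or 6, or 5 % STIM replicate 2, with limma adjusted p = 0.0291 to 0.0484).

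Among the cytoplasmic enzymes that act on ERK, 2 of 3 fell under 1 % O2 at rest and 3 of 3 after stimulation. Of all genes tested, 59.9 % passed at rest (30.5 % lower) and 57.4 % after stimulation (28.4 % lower). *Dusp6* (ENSMUSG00000019960, chr10:99263231-99267489, + strand), the feedback phosphatase of ERK that is widely used as a readout of this pathway, had 720 to 857 normalized counts in 5 % CTRL (median 759) and 346 to 386 in 1 % CTRL (median 368). With stimulation it had 661 to 735 under 5 % O2 (median 717) and 332 to 393 under 1 % O2 (median 358). The O2 groups were far apart in both states. Its log2 fold change was -1.08 at rest (SE 0.05, limma adjusted p = 2.91e-19) and -0.97 after stimulation (SE 0.05, limma adjusted p = 8.93e-18). *Dusp7* (ENSMUSG00000053716, chr9:106368632-106375724, + strand) fell less, by 0.23 on the log2 scale at rest (SE 0.07, limma adjusted p = 0.00331), where the groups overlapped, and by 0.44 after stimulation (SE 0.07, limma adjusted p = 1.11e-06), where they did not. *Dusp9* (ENSMUSG00000031383, chrX:73639419-73643514, + strand), best known from placenta, had 112 to 158 normalized counts in 1 % CTRL and 116 to 138 in 5 % CTRL and did not pass at rest (0.13, 95 % interval -0.06 to 0.33, limma adjusted p = 0.244). After stimulation it was lower under 1 % O2 by a log2 difference of -0.32 (SE 0.10, limma adjusted p = 0.00549), with overlapping groups.

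The level per kb summed over these 3 genes was 368 to 424 in 5 % CTRL and 351 to 380 in 5 % STIM, but 233 to 262 in 1 % CTRL and 211 to 236 in 1 % STIM, so the 12 libraries under 1 % O2 all lay below the 12 under 5 % O2. *Dusp6* was the largest part of that sum in every group. The ratio of *Dusp1* to *Dusp6* per kb had a median of 0.422 in 5 % CTRL and 1.14 in 1 % CTRL. This ratio restates the opposite changes of both genes with O2 in the same libraries and is not a separate result. After stimulation its median was 0.478 under 5 % O2 and 1.68 under 1 % O2, and the ranges of the 1 % O2 groups, 1.08 to 1.35 and 1.52 to 1.78, overlapped neither each other nor the 5 % O2 groups.

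Of the enzymes that prefer JNK and p38, *Dusp10* (ENSMUSG00000039384, chr1:184013302-184075636, + strand) was higher under 1 % O2. It ran from 895 to 987 normalized counts in 5 % CTRL (median 963) and from 1010 to 1143 in 1 % CTRL (median 1093), without overlap. Its log2 fold change was 0.20 at rest (SE 0.05, limma adjusted p = 9.86e-04) and 0.26 after stimulation (SE 0.05, limma adjusted p = 4.46e-05). *Dusp16* (ENSMUSG00000030203, chr6:134715468-134792625, - strand) passed the O2 test in stimulated cultures and not at rest. Its medians at rest were 812 normalized counts in 5 % CTRL and 795 in 1 % CTRL (log2 difference -0.02, 95 % interval -0.10 to 0.06, limma adjusted p = 0.651). After stimulation it had 786 to 850 under 5 % O2 and 996 to 1142 under 1 % O2, without overlap (log2 fold change 0.34, SE 0.04, limma adjusted p = 3.21e-09). *Dusp8* (ENSMUSG00000037887, chr7:142079490-142095843, - strand) did not pass in either O2 comparison, with log2 differences of 0.08 (95 % interval -0.04 to 0.19) at rest and -0.08 (95 % interval -0.19 to 0.03) after stimulation. The value at rest rested on 1 library. Without 1 % CTRL replicate 1, which had 579 normalized counts against 707 to 806 in the other 5, it was 0.14 (limma adjusted p = 0.0102), and with libraries scaled to the same total it was 0.16 (limma adjusted p = 0.0163).

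**Figure D3:**
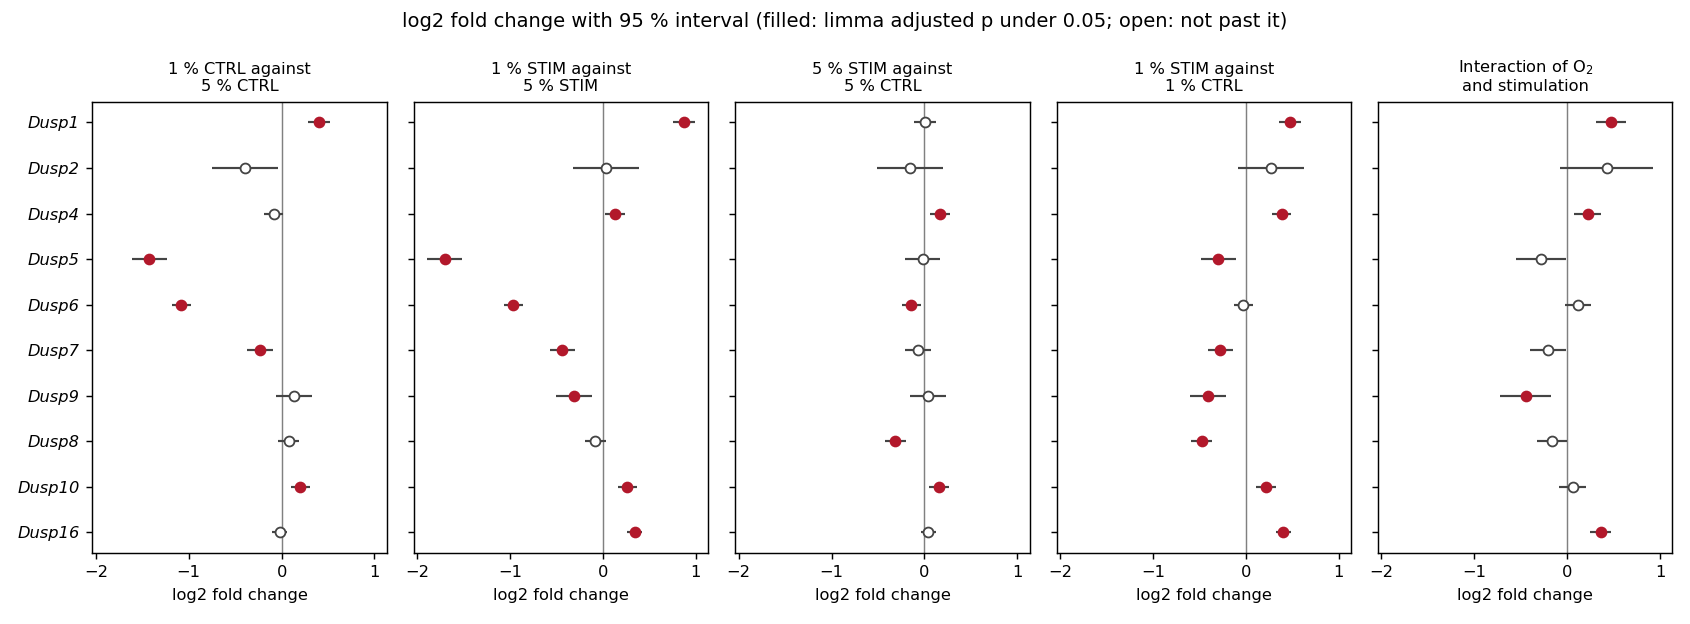
log2 fold change (x axes) of each MAP kinase phosphatase gene (y axis) in the 4 comparisons and the interaction, with 95 % intervals from limma; filled points had an adjusted p under 0.05 and open points did not. *Dusp5* and *Dusp6* lie near or below -1 in both O2 comparisons, and *Dusp8* is the lowest point in both stimulation comparisons.

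Stimulated cultures were then compared with cultures at rest at the same O2 level. *Dusp8* was lower and *Dusp4* and *Dusp10* were higher after stimulation at both O2 levels, while *Dusp1* and *Dusp16* rose with stimulation under 1 % O2. The calls of *Dusp4* and *Dusp10* under 5 % O2 were lost under several alternatives, given beside these genes. Under 5 % O2, 4 of the 10 genes passed the test, 2 higher and 2 lower, against 21.4 % of all genes tested (9.44 % higher and 12 % lower), and 1 of the 10 did not overlap between groups, against 11.1 %. Under 1 % O2, 8 of the 10 passed, 4 higher and 4 lower, against 22.3 % (11.5 % higher and 10.8 % lower), and 5 of the 10 did not overlap, against 11.2 %. The median log2 fold change of the 10 was -0.0054 under 5 % O2 and 0.096 under 1 % O2, beside -0.0076 and -0.0031 over all genes tested. These comparisons share their rest or stimulated libraries with the O2 comparisons above. Stimulated cultures had their medium changed on both sides of the stimulation, and whether the resting cultures were handled alike is not given in the sources used here, so contraction and handling cannot be told apart. The 2 h of exposure came before the stimulation, so stimulated cultures also spent its duration at their O2 level. Whether resting cultures were held as long is not given, so contraction and time under 1 % O2 cannot be told apart either. Of the 12 myotube markers, 0 were higher and 3 lower with stimulation under 5 % O2 (25 % beside 21.4 % of all genes). Under 1 % O2, 0 were higher and 2 lower (16.7 % beside 22.3 %). Of the 7 myoblast and reserve cell markers, 3 were higher and 1 lower under 5 % O2 (57.1 % beside 21.4 %). Under 1 % O2, 2 of the 7 were higher and 1 lower (42.9 % beside 22.3 %). The hypoxia check list also moved with stimulation, with 2 of 10 higher and 6 lower under 5 % O2 (80 % beside 21.4 % of all genes). Under 1 % O2, 0 were higher and 9 lower (90 % beside 22.3 %). The median log2 fold change there was -0.52, and all 9 were without overlap, beside 11.2 % of all genes. The part of these lists in the phosphatase results was not tested.

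*Dusp8*, whose product acts on JNK and p38, was the 1 gene of the 10 whose resting and stimulated libraries did not overlap at either O2 level. Its normalized counts ran from 643 to 710 in 5 % CTRL (median 687) and from 508 to 590 in 5 % STIM (median 546). Under 1 % O2 they ran from 579 to 806 at rest (median 732) and from 473 to 553 after stimulation (median 517). Neither pair of groups overlapped. The log2 fold change was -0.31 under 5 % O2 (SE 0.06, limma adjusted p = 6.07e-05) and -0.47 under 1 % O2 (SE 0.06, limma adjusted p = 3.46e-08), a fall to 0.804 and 0.720 of the level at rest. In the order of its 4 groups, 1 % STIM and 5 % STIM were lowest and did not differ beyond their spread (limma adjusted p = 0.219), nor did 5 % CTRL and 1 % CTRL above them (limma adjusted p = 0.231).

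*Dusp10* rose by 0.16 on the log2 scale under 5 % O2 (SE 0.05, limma adjusted p = 0.0234) and by 0.22 under 1 % O2 (SE 0.05, limma adjusted p = 0.00144). Its ranges overlapped in both cases, with 970 to 1218 normalized counts in 5 % STIM and 1074 to 1380 in 1 % STIM. The call under 5 % O2 was lost without 5 % CTRL replicate 5, 5 % STIM replicate 3 or 5 % STIM replicate 6 (limma adjusted p = 0.0519 to 0.0902). On the whole reads of 22 libraries it was also lost (edgeR adjusted p = 0.110, limma voom adjusted p = 0.145, DESeq2 adjusted p = 0.111). The same held with limma on these 22 (limma adjusted p = 0.110). *Dusp16* had 741 to 842 normalized counts in 1 % CTRL and 996 to 1142 in 1 % STIM, without overlap, a rise of 0.40 on the log2 scale (SE 0.04, limma adjusted p = 3.92e-10). Under 5 % O2 its difference was 0.04 (95 % interval -0.04 to 0.12, limma adjusted p = 0.484). Its levels in 1 % CTRL, 5 % CTRL and 5 % STIM did not differ beyond their spread in any pair, and 1 % STIM alone stood above them.

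Among the inducible nuclear genes, *Dusp1* rose with stimulation under 1 % O2 by 0.48 on the log2 scale, or 1.39-fold (SE 0.06, limma adjusted p = 5.46e-08). Under 5 % O2 its difference was 0.01 (95 % interval -0.11 to 0.12, limma adjusted p = 0.961). *Dusp4* rose at both O2 levels, by 0.17 under 5 % O2 (SE 0.05, limma adjusted p = 0.0190) and by 0.39 under 1 % O2 (SE 0.05, limma adjusted p = 4.96e-07). Its normalized counts of 786 to 989 in 1 % STIM were all above the 622 to 732 of 1 % CTRL, whereas 5 % STIM (771 to 841) overlapped 5 % CTRL (673 to 807). The call of *Dusp4* under 5 % O2 was lost without 5 % CTRL replicate 1 (0.15, limma adjusted p = 0.0545). On the whole reads of 22 libraries it was also lost (edgeR adjusted p = 0.0703, limma voom adjusted p = 0.0697, DESeq2 adjusted p = 0.0576). The same held with limma on these 22 (limma adjusted p = 0.0534). *Dusp5* was lower after stimulation under 1 % O2 (-0.30, SE 0.09, limma adjusted p = 0.0182), which was lost without 1 % CTRL replicate 3 or 1 % STIM replicate 5 (limma adjusted p = 0.0552 and 0.0611). With limma voom on the whole reads of 22 libraries *Dusp5* did not pass either (limma voom adjusted p = 0.101). Under 5 % O2 its difference was -0.02 (95 % interval -0.21 to 0.17, limma adjusted p = 0.929).

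Of the cytoplasmic genes, *Dusp7* and *Dusp9* were lower after stimulation under 1 % O2. *Dusp7* had 249 to 302 normalized counts in 1 % CTRL and 212 to 246 in 1 % STIM, without overlap (log2 fold change -0.27, SE 0.07, limma adjusted p = 0.00255). *Dusp9* had 89.1 to 129 normalized counts in 1 % STIM, which overlapped the 112 to 158 of 1 % CTRL (log2 fold change -0.41, SE 0.10, limma adjusted p = 0.00161). Under 5 % O2 neither passed, with *Dusp7* at -0.07 (95 % interval -0.21 to 0.07) and *Dusp9* at 0.04 (95 % interval -0.16 to 0.24). *Dusp6* hardly differed with stimulation when set beside its O2 difference. Its log2 difference was -0.14 under 5 % O2 (SE 0.05, limma adjusted p = 0.0383) and -0.03 under 1 % O2 (95 % interval -0.13 to 0.08, limma adjusted p = 0.783). The former call was lost with libraries scaled to the same total (-0.11, limma adjusted p = 0.123) and with no filter (limma adjusted p = 0.0787). It was also lost without 5 % CTRL replicate 2 or 3 or 5 % STIM replicate 2, 5 or 6 (limma adjusted p = 0.0512 to 0.120).

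The interaction of O2 and stimulation asks whether the response to stimulation under 1 % O2 differed from that under 5 % O2. A longer time under 1 % O2 in stimulated cultures cannot be told apart from such a difference. It passed the test for 4 of the 10 genes, 3 higher and 1 lower, against 11.3 % of all genes tested (5.88 % higher and 5.43 % lower). Among these 4, the largest value was that of *Dusp1*, 0.47 on the log2 scale (SE 0.08, limma adjusted p = 1.10e-04), and *Dusp16* had 0.36 (SE 0.05, limma adjusted p = 1.77e-05). Both calls held without any 1 of the 24 libraries. *Dusp4* had 0.22 (SE 0.07, limma adjusted p = 0.0477) and *Dusp9* had -0.45 (SE 0.14, limma adjusted p = 0.0282). The call of *Dusp4* was lost with libraries scaled to the same total (limma adjusted p = 0.0657) and when any 1 of 14 libraries was left out, namely 5 % CTRL replicates 3, 4 and 6, 1 % CTRL replicates 1, 3, 4 and 6, 5 % STIM replicates 1, 3, 4 and 6 and 1 % STIM replicates 1, 3 and 5 (limma adjusted p = 0.0583 to 0.101). The call of *Dusp9* was lost without 1 % CTRL replicate 4 or 6, 5 % STIM replicate 1 or 3 or 1 % STIM replicate 2 or 3 (limma adjusted p of at most 0.0567), and with the libraries' trend with gene length as a covariate (-0.36, limma adjusted p = 0.0718). *Dusp8*, whose interaction was -0.16 (95 % interval -0.32 to 0.00093, limma adjusted p = 0.206), passed without 1 % CTRL replicate 1 (-0.22, limma adjusted p = 0.0168). *Dusp2* had a value as large as the called ones, 0.43, but with a wide interval (95 % interval -0.08 to 0.93, limma adjusted p = 0.290). On the hypoxia check list the interaction was higher for 1 and lower for 7 of 10 genes (80 % beside 11.3 % of all genes). The part of this list in these values was not tested. For *Dusp5*, *Dusp6*, *Dusp7* and *Dusp10* the interaction did not pass (-0.28, 0.12, -0.20 and 0.06), so their responses under the 2 O2 levels were not shown to differ.

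The kinases and their other regulators were read from lists of genes. Of 13 ERK cascade genes tested, 5 were higher and 3 lower in 1 % CTRL against 5 % CTRL, 61.5 % of the list beside 59.9 % of all genes. *Ksr1*, a scaffold of the cascade, was higher by 1.09 (SE 0.06, limma adjusted p = 1.57e-16) and *Map2k1*, the kinase upstream of ERK, by 0.35 (SE 0.04, limma adjusted p = 2.00e-09). With stimulation under 5 % O2, 0 rose and 1 fell, 7.69 % of the list beside 21.4 % of all genes. Under 1 % O2 3 rose and 4 fell, 53.8 % beside 22.3 %. Of 16 tested genes of the JNK and p38 cascade, 4 were higher and 9 lower in 1 % CTRL than in 5 % CTRL, 81.2 % of the list beside 59.9 % of all genes. *Map3k1*, a kinase upstream of JNK, was higher by 1.24 (SE 0.08, limma adjusted p = 1.14e-15), *Mapk11*, which encodes p38 beta, was higher by 1.02 (SE 0.07, limma adjusted p = 5.75e-14), and *Map2k3*, a kinase that activates p38, differed by -1.21 (SE 0.03, limma adjusted p = 2.66e-25).

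The Sprouty and Spred proteins and *Errfi1* restrain receptor and ERK signalling and, like *Dusp6*, are feedback genes. Of these 8 genes, 3 were higher and 4 lower in 1 % CTRL than in 5 % CTRL, 87.5 % of the list beside 59.9 % of all genes. *Errfi1* had the largest fall, from a mean of 4655 to 1252 normalized counts (log2 fold change -1.89, SE 0.05, limma adjusted p = 3.44e-25), and *Spry2* (-0.87, SE 0.06, limma adjusted p = 3.80e-15) and *Spry4* (-0.86, SE 0.08, limma adjusted p = 6.48e-11) fell with it. *Spred2* (0.79, SE 0.04, limma adjusted p = 1.19e-18) and *Spred3* (0.98, SE 0.09, limma adjusted p = 2.57e-11) were higher. After stimulation the O2 comparison had 3 of the 8 higher and 3 lower, 75 % beside 57.4 % of all genes. *Errfi1* again had the largest fall (-1.95, SE 0.05, limma adjusted p = 2.26e-25). Stimulation lowered 3 of the 8 under 5 % O2 and raised 0 (37.5 % beside 21.4 % of all genes), with *Spry1* lowest at -1.19 (SE 0.08, limma adjusted p = 6.04e-14). Under 1 % O2 it lowered 5 and raised 1 (75 % beside 22.3 % of all genes), the latter being *Spry2* (0.46, SE 0.06, limma adjusted p = 1.11e-07).

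Among 17 genes known to be transcribed in answer to ERK, 3 were higher and 11 lower in 1 % CTRL against 5 % CTRL. This was 82.4 % of the list, beside 59.9 % of all genes. Their median log2 fold change was -0.42, beside 0.0015 over all genes. The transcription factors *Egr2* (-1.71, SE 0.07, limma adjusted p = 4.77e-21) and *Egr1* (-1.39, SE 0.10, limma adjusted p = 1.54e-10) were among the 11, and *Ier3*, a stress response gene, was among the 3 (1.67, SE 0.07, limma adjusted p = 5.22e-18). In 1 % STIM against 5 % STIM the count was again 3 higher and 11 lower (82.4 % beside 57.4 % of all genes), with a median of -0.74. With stimulation, 4 of the 17 rose and 3 fell under 5 % O2 (41.2 % beside 21.4 % of all genes). Under 1 % O2, 3 rose and 6 fell (52.9 % beside 22.3 %). *Atf3*, a stress-induced transcription factor, rose at both O2 levels (0.94, SE 0.11, limma adjusted p = 3.61e-08, and 0.84, SE 0.11, limma adjusted p = 2.30e-07).

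**Figure D4:**
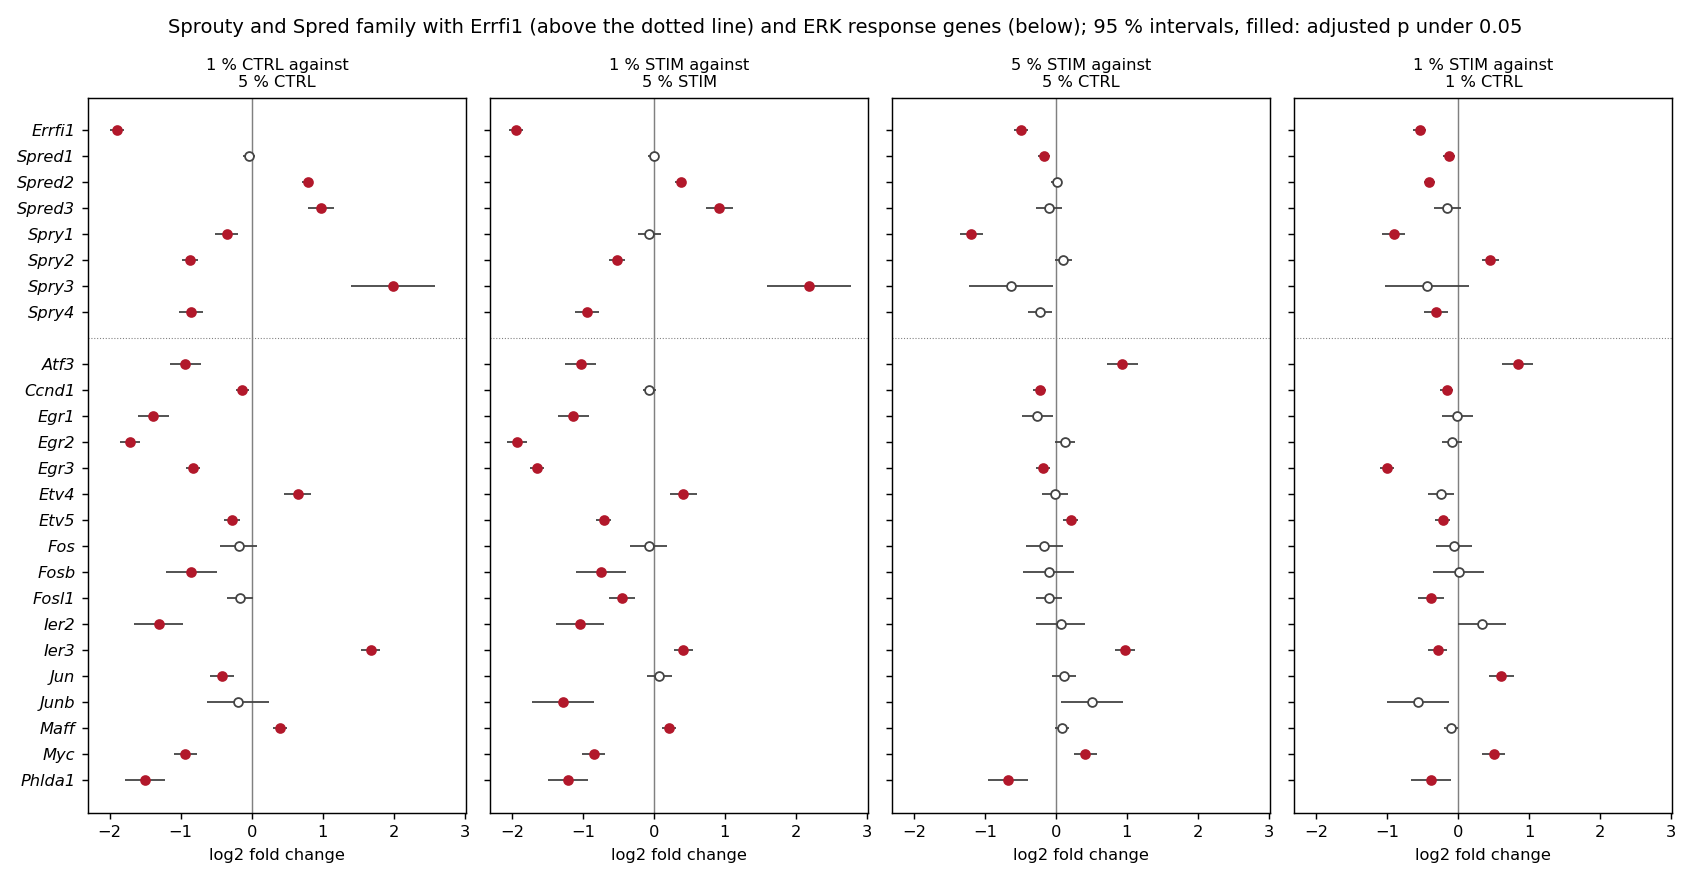
log2 fold change (x axes) of the 8 Sprouty, Spred and *Errfi1* genes and of the 17 ERK response genes (y axis) in the 4 comparisons, with 95 % intervals from limma; filled points had an adjusted p under 0.05. In 1 % CTRL against 5 % CTRL, 11 of the 17 response genes are filled below 0 and 3 above it, whereas in 5 % STIM against 5 % CTRL 3 are filled below 0 and 4 above it. Of all genes tested, 59.9 % passed in the former comparison and 21.4 % in the latter.

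Atypical members of the dual-specificity family and other phosphatases were tested alongside, and not all of them act on MAP kinases. Of 12 genes of the atypical dual-specificity phosphatase family that passed the filter, of 17 in the table, 5 were higher and 4 lower in 1 % CTRL than in 5 % CTRL. This was 75 % of the 12, beside 59.9 % of all genes. *Dusp14* fell by 0.61 on the log2 scale (SE 0.06, limma adjusted p = 1.28e-11) and *Dusp27*, a muscle-enriched member, by 0.53 (SE 0.03, limma adjusted p = 4.34e-17). The counts were 4 higher and 4 lower in 1 % STIM against 5 % STIM, 2 and 1 with stimulation under 5 % O2, and 1 and 4 with stimulation under 1 % O2. These were 66.7 %, 25 % and 41.7 % of the 12, beside 57.4 %, 21.4 % and 22.3 % of all genes. In a list of 8 other phosphatases, the tyrosine phosphatases *Ptpn5*, *Ptpn7* and *Ptprr* did not pass the filter. The 5 that did were all serine and threonine phosphatases. Of these, 0 were higher and 4 lower under 1 % O2 at rest (80 % beside 59.9 % of all genes), *Ppm1a* the lowest at -0.31 (SE 0.03, limma adjusted p = 9.18e-11). With stimulation 2 of these 5 rose and 0 fell at each O2 level (40 %, beside 21.4 % of all genes under 5 % O2 and 22.3 % under 1 % O2). *Ppm1d* rose by 0.26 (SE 0.05, limma adjusted p = 2.34e-04) under 5 % O2 and by 0.31 (SE 0.05, limma adjusted p = 1.38e-05) under 1 % O2.

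Likeness of pattern is given as Pearson's r of log2 values over the 24 libraries, which share 4 groups, among the 10795 genes whose mean reached 100. *Dusp5* and *Dusp6* were alike (r = 0.961), *Dusp7* was less like *Dusp5* (r = 0.850), and *Dusp1* ran against *Dusp5* (r = -0.871) and *Dusp6* (r = -0.857). Of all genes compared, the pattern of *Dusp6* was most like those of *Prrg4*, *Cd44* and *Fam20c* (r = 0.988, 0.988 and 0.987), and that of *Dusp5* most like *Tnks1bp1*, *Prag1* and *Vasn* (r = 0.983, 0.983 and 0.981). *Dusp1* was closest to *Atcayos*, *Dnajb1* and *Josd1* (r = 0.955, 0.950 and 0.946), *Dusp8* to *Kcnf1* (r = 0.931), *Dusp10* to *Fez1* (r = 0.928), *Dusp16* to *Btg2* (r = 0.914), *Dusp7* to *Klf5* (r = 0.898) and *Dusp4* to *Dll1* (r = 0.879). The nearest genes of *Dusp2* (*Gm15446*, r = 0.748) and *Dusp9* (*Tinagl1*, r = 0.728) were less alike. The groups and depth of the libraries are common to all these values.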

How the data were processed

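RNA was measured in 24 libraries of C2C12 myotubes, in 4 groups of 6 taken from the sample labels. The authors sequenced stranded mRNA libraries from a single end, aligned reads to GRCm38 with STAR 2.5.4b and estimated counts per gene with RSEM 1.3.0, without using the strand. The signal deposited by the authors is the count divided by a DESeq2 size factor. A second deposited table holds the authors' own comparisons (fold changes, p-values, calls) and was not used. Genes that reached 10 normalized counts in 6 or more libraries entered 1 limma 3.58.1 fit (lmFit, contrasts.fit, eBayes with trend and robust) of log2(normalized count + 1) over the 4 groups. An adjusted p (Benjamini-Hochberg) under 0.05 was called, and fold changes of low genes are understated on this scale. The scripts were tested on simulated data.

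Gene coordinates and exon lengths come from GENCODE M21 (55227 of 55487 genes matched), and promoters from RefSeq. Whole reads were recovered from the steps between values. For 2 libraries (5 % CTRL replicate 5 and 5 % STIM replicate 3) the size factor was so near 1 that deposited values could not be told from rounded ones by the check used, so these were left out there and edgeR 4.0.16, DESeq2 1.42.0 and limma voom ran on 22 libraries, as alternatives only. Other alternatives were a pseudocount of 10, no filter, a threshold of 0.01, a replicate block, rescaled libraries, a fit of the compared groups alone, a gene-length covariate and leaving out each library. The phosphatase genes, the gene lists and the tests were chosen with earlier results of these data known. In other lists the genes named are up to 5 called members with the largest change and a mean of at least 100 in either group. For likeness, the nearest 1 to 3 genes are named.

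The study describes the 6 samples of each group as biological replicates. No batch or date was given for them in the sources used here.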

Additional observations from a re-analysis of the deposited data

Results flagged for a closer look

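In 3 of 40 sets (10 genes in 4 groups) a single library stood apart from the other 5 of its group by Dixon's test, which chance does in about 1 set in 20. *Dusp1* had 698 normalized counts in 1 % STIM replicate 2 and 612 to 641 in the others. *Dusp7* had 269 in 5 % CTRL replicate 6 and 318 to 340 in the others. *Dusp16* had 1142 in 1 % STIM replicate 1 and 996 to 1044 in the others. Leaving out any of these libraries changed no call of the gene concerned.

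The response to stimulation differed between the O2 levels by the limma interaction term for *Dusp1* (0.47 on the log2 scale), *Dusp16* (0.36), *Dusp4* (0.22) and *Dusp9* (-0.45). The first 2 calls held without any 1 library, and the other 2 did not.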

How the results depend on the processing

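Over the alternatives, 1740 values of the 10 genes were recomputed for 50 results. Of these, 1658 kept their side of the threshold, 70 no longer passed it and 12 newly passed it. None of the 1011 values of called results changed sign, and 16 of the 729 values of results not called did, all with reported values between -0.02 and 0.04 (*Dusp1*, *Dusp2*, *Dusp5*, *Dusp9* and *Dusp16*). Many of these values could not change sign. The fold change stayed the same at a threshold of 0.01, with no filter, with the replicate block and in a fit of the compared groups alone. The same held where the library left out lay outside the groups compared. At an adjusted p under 0.01, 1944 of all genes (13.4 %) passed in 5 % STIM against 5 % CTRL and 830 (5.71 %) for the interaction, and 1 and 2 of the 10 phosphatase genes. In 5 % STIM against 5 % CTRL, 2 of the 10 passed with edgeR, limma voom and DESeq2 on 22 libraries and with limma on the same 22, an alternative chosen after seeing the data. These 2 were *Dusp6* and *Dusp8*. Of all genes tested, 17.6 %, 17.3 %, 17.8 % and 17.7 % passed in the same order, so the share of the family was near that of the whole table. For the interaction, 2 of the 10 passed under each of those 4 and with no filter, namely *Dusp1* and *Dusp16*. Of all genes tested, 9.05 %, 9.02 %, 10.3 %, 8.60 % and 4.39 % passed in the same order. Since limma on the 22 libraries gave the same counts as the other tools, these counts also fell with the libraries left out alone.

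Leaving out each library in turn, all genes called ranged from 8378 to 8955 in 1 % CTRL against 5 % CTRL, 8075 to 8576 in 1 % STIM against 5 % STIM, 2666 to 3469 in 5 % STIM against 5 % CTRL, 2893 to 3748 in 1 % STIM against 1 % CTRL and 1343 to 2316 for the interaction. Of the 10 genes, the ranges were 5 to 6, 7 to 8, 2 to 4, 7 to 8 and 2 to 4. The 2 was reached in 5 % STIM against 5 % CTRL without 5 % STIM replicate 6, and for the interaction without 1 % CTRL replicate 4 or 6, 5 % STIM replicate 1 or 3 or 1 % STIM replicate 3.

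Replicate numbers did not pair the samples. Over 36 pairs of the same number the median correlation of deviations was 0.006, 2 were over 0.1, and 5 of 24 libraries correlated best with their own number. With the replicate block, 2 calls changed, *Dusp2* in 1 % CTRL against 5 % CTRL (limma adjusted p = 0.0374) and the interaction of *Dusp4* (limma adjusted p = 0.0504). Depth limits *Dusp2* most, with group means of 20.1 to 26.5 normalized counts.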
